A study of Mus musculus with 2 samples.

Results

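The 30 mouse genes described here are p53 targets and parts of the apoptosis machinery, taken by symbol from the gene table of a single-cell RNA-seq study of whole testis; all 30 symbols were found once among its 32285 genes. They comprise the effectors Bax and Bak1, 6 BH3-only genes (Bad, Bid, Bik, Bbc3, Pmaip1, Bcl2l11), 4 survival members of the BCL2 family (Bcl2, Bcl2l1, Bcl2l2, Mcl1), and 9 genes of cell cycle arrest and p53 feedback (Cdkn1a, Trp53inp1, Ccng1, Mdm2, Phlda3, Gadd45a, Gadd45b, Gadd45g, Sesn2). The others are Casp2, Casp8, Casp9 and the apoptosome scaffold Apaf1, the death receptor Fas, the membrane gene Perp, the nuclease Aen, and the p53 family members Trp53 and Trp63. The study made 1 library from dissociated testes of a control genotype (Dot1L fl/+; Cre-) and 1 from a conditional knockout (cKO; Dot1L fl/delta; Ddx4-Cre+), with a 10x Genomics 3′ kit. DOT1L is the histone H3 lysine 79 methyltransferase, fl an allele that Cre recombinase can delete and delta the deleted allele. Ddx4-Cre is active in germ cells, so somatic cells of the cKO testis are labelled with 1 delta and 1 fl allele, and the germ cells of both genotypes began with at least 1 fl allele. The labels give no ages and no number of animals behind a library. With 1 library per genotype there are no replicates and no test was possible: intervals are 95% intervals of the count of unique molecular identifiers (UMIs) and cover counting error only.

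The p53 protein is a transcription factor that is stabilised when DNA is damaged, and MDM2 is both its target and the ligase that marks it for degradation. Its other targets arrest the cell cycle (CDKN1A, the GADD45 proteins), feed back on p53, or release the mitochondrial route to cell death. In that route BH3-only proteins block survival proteins such as MCL1 and BCL2L1 (BCL-XL) or act on BAX and BAK1, which open the outer mitochondrial membrane; APAF1 and CASP9 then start the caspase cascade. Germ cells die in numbers during normal spermatogenesis, BAX is needed for the early wave of germ cell death in young mice, and the p63 gene Trp63 is known as a guardian of genome integrity in germ cells.

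After filters on UMIs, genes, mitochondrial share and doublet score, 15138 control and 17611 cKO cells were kept, and 102 cell barcodes occur in both libraries. Clusters were named from marker genes that include none of the members, and "like" is understood after each class name. The classes held 269 control and 437 cKO spermatogonia, 643 and 1096 early spermatocytes, 1492 and 1350 mid to late spermatocytes, 1426 and 1546 round spermatids, 3578 and 3109 elongating spermatids, and 564 and 1830 somatic cells (Sertoli, Leydig, macrophage and interstitial mesenchymal classes). Another 6226 control and 6886 cKO cells of low depth were in clusters left unnamed, and 940 and 1357 were in clusters of low RNA content. Each spermatid class was made mostly of different clusters in the 2 libraries (round: clusters 12 and 21 in control, 10 and 19 in cKO; elongating: 3, 8 and 20 in control, 4, 9 and 24 in cKO, beside cluster 22 with 186 control and 204 cKO cells), so any spermatid ratio also compares clusters. The targeted gene checked the labels in round spermatids, where Dot1l had 1470 control and 185 cKO UMIs (log2 ratio -3.0); it was at -0.80 in spermatogonia, -0.06 in early spermatocytes, -1.16 in mid to late spermatocytes, -1.21 in elongating spermatids and -1.44 in somatic cells. The labels do not name the deleted exons, and 3′ tags may lie outside them.

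Promoters of 25 members (33 start sites, 250 bases before each start) were read from RefSeq, build GRCm38.p6; Bik, Pmaip1, Trp53inp1, Perp and Trp63 had no entry there. The p53 half-site consensus, which reads the same on both strands, occurred in 7 of the 33 windows, 1 each for 7 members, which is 21.2%; 7.13% of all 32851 promoter windows of that length held it. The first start site of Cdkn1a held 2 half-sites, 73 and 51 bases before the start. They are separated by less than 13 bases and so form a full site, which only 0.064% of all windows held. The other 6 were Bax (201 bases before the start), Mdm2 (186), Ccng1 (185), Aen (121, its second start site), Trp53 (75) and Gadd45a (40). The promoters of 4 p53 targets on which results turn follow, with half-sites in capitals, and then that of Mcl1, the member with the most widespread difference between the libraries, whose window held none.
Cdkn1a, chr17:29090729-29090978, plus strand: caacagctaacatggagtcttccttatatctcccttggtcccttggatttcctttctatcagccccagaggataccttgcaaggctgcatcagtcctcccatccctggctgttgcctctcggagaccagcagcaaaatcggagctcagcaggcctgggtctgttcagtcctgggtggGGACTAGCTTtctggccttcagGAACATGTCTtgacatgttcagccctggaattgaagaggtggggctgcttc
Mdm2, chr10:117710759-117711008, minus strand: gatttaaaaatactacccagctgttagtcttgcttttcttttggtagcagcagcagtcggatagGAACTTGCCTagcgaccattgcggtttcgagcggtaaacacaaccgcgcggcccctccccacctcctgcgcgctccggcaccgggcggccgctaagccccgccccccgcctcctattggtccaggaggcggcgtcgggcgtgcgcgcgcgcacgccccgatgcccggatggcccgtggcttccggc
Bax, chr7:45466899-45467148, minus strand: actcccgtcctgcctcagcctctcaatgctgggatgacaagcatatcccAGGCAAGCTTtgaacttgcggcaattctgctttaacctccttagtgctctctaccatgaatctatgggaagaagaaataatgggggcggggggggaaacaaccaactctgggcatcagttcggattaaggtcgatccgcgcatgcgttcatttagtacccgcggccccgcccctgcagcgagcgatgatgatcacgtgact
Ccng1, chr11:40755287-40755536, minus strand: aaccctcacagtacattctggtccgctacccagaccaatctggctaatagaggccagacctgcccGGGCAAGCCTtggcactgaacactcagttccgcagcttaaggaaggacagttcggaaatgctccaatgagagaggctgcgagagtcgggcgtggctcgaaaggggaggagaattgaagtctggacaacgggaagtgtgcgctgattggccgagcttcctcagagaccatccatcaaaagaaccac
Mcl1, chr3:95658471-95658720, plus strand: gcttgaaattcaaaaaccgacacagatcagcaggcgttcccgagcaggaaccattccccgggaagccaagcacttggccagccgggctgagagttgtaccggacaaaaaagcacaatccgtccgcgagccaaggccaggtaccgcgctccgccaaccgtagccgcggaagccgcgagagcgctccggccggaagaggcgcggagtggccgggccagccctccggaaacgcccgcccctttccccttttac
CCAAT or its complement ATTGG was found in 15 of the 33 windows (45.5%, against 33.9% of all windows), TGACGTCA in 0 (1.55% of all windows), and TATAAA on the gene's strand in 2, those of Gadd45b and Gadd45g. A match is a match of letters and does not show that a factor binds there.

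Most members were at their highest at the start of spermatogenesis. The spermatogonium class held the highest level, in CPM (the gene's UMIs scaled to the UMI total of its class), for 20 of 30 control and 19 of 30 cKO profiles. Of the 20570 genes with 50 or more germ cell UMIs over both libraries, 32.8% and 32.5% peaked there. Bcl2 (14 and 28 germ cell UMIs) and Fas (18 and 17) are below that minimum and are still counted among the 30. For 14 of the 20 and 14 of the 19 the interval of the highest class did not overlap that of the next. The highest class was the same in both libraries for 26 of 30 members, and for 18 of these it was clear of the next in both. Of the members not highest in spermatogonia, early spermatocytes were highest in the control for Bcl2l1, Pmaip1, Perp and Trp63, mid to late spermatocytes for Bad, Bak1 and Bbc3, round spermatids for Mdm2, and elongating spermatids for Bcl2l11 and Cdkn1a. For Pmaip1, Perp, Bak1, Bbc3, Mdm2 and Cdkn1a the control interval of the highest class overlapped that of the next.

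**Figure D1:**
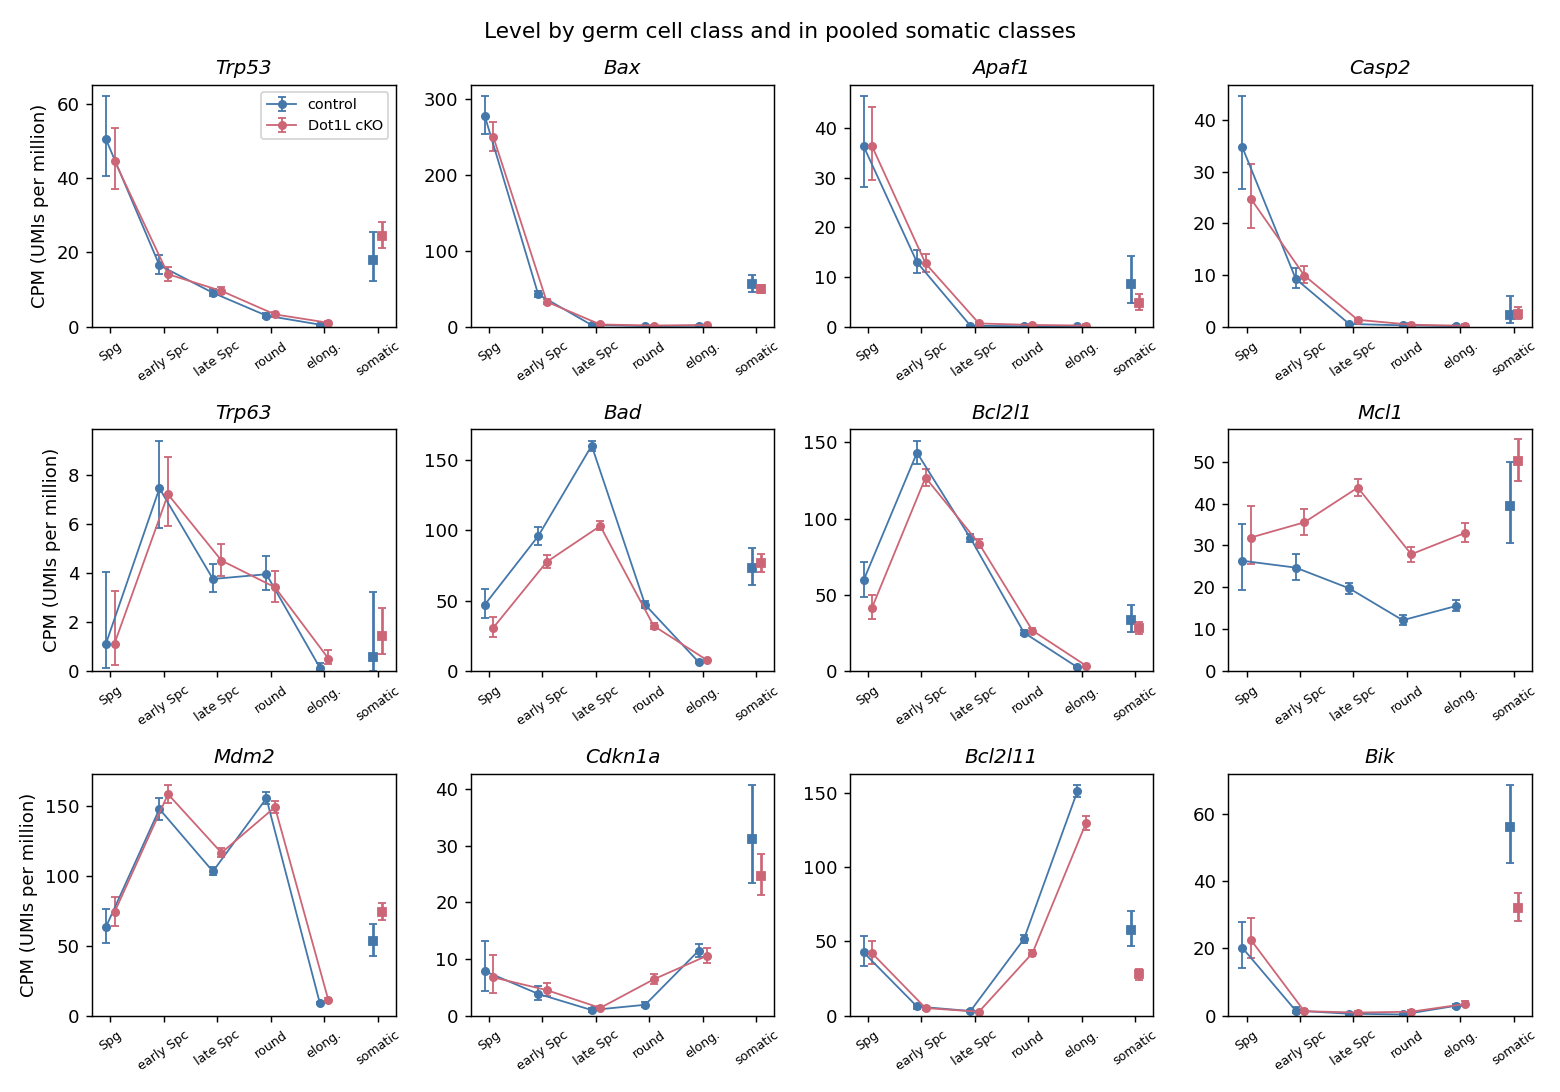
Level of 12 members in CPM (linear axis, from 0) in spermatogonium (Spg), early and mid to late spermatocyte (Spc), round and elongating spermatid classes (circles, joined) and in pooled somatic classes (squares), control in blue and cKO in red, with exact Poisson 95% intervals from counting. Trp53, Bax, Apaf1 and Casp2 are highest in spermatogonia, Bcl2l11 in elongating spermatids, and Mcl1 is higher in cKO than in control from early spermatocytes on.

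The effectors Bax and Bak1, which open the mitochondrial membrane, had different courses. Bax was at 277 CPM (495 UMIs) in control and 249.8 CPM (666 UMIs) in cKO spermatogonia, at 42.3 and 32.6 CPM in early spermatocytes, and at 1.99 and 2.75 CPM in mid to late spermatocytes. Bax RNA was thus concentrated in the mitotic and earliest meiotic cells of both libraries, and somatic cells had 56.1 and 49.0 CPM. In round spermatids it had 23 UMIs in control and 47 in cKO (0.684 and 1.39 CPM, log2 ratio 1.02, interval 0.27 to 1.81). In elongating spermatids it had 38 and 52 UMIs (1.05 and 2.05 CPM, log2 ratio 0.97, 0.34 to 1.61). Free RNA per cell was estimated from spermatid marker UMIs in macrophage and mesenchymal cells. It was spread over genes by the profile of all barcodes of the library, not by one of empty droplets. Where the estimate exceeds a gene's count, it overshoots. Free RNA would account for 57.3% and 48.6% of the round spermatid UMIs of Bax and for 87.0% and 88.3% of those in elongating spermatids. How far these levels lie above background is therefore not known. With clusters weighted alike the elongating ratio of Bax was 0.11, short of 1.5-fold; that value rests on clusters 20 and 22, which held 6 cKO UMIs of Bax together. Early spermatocytes went the other way, with 408 and 479 UMIs and a log2 ratio of -0.37 (-0.57 to -0.18), short of 1.5-fold. Bak1 had 0 UMIs in the spermatogonia of both libraries, a count for which a floor of 3 UMIs was set. Its level was 4.56 and 4.02 CPM in early and 4.78 and 5.53 CPM in mid to late spermatocytes. In the latter its log2 ratio was 0.21 (-0.06 to 0.48).

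Among the BH3-only genes, which sense damage or lost survival signals, Bad was lower in the cKO library in each class before the elongating stage. Its product binds and blocks BCL2L1. In mid to late spermatocytes it had 7561 UMIs in control (159.9 CPM, 156.3 to 163.5) and 4261 in cKO (102.9 CPM, 99.9 to 106.1), a log2 ratio of -0.64 (-0.69 to -0.58). All 3 clusters of that class, which hold cells of both libraries, had the lower value in cKO, at log2 ratios of -0.85 (cluster 5), -0.48 (cluster 13) and -0.79 (cluster 18). Bad was also lower in cKO in spermatogonia (84 and 82 UMIs, 47.1 and 30.8 CPM, -0.61), in early spermatocytes (923 and 1137 UMIs, 95.7 and 77.5 CPM, -0.31) and in round spermatids (1581 and 1086 UMIs, 47.0 and 32.1 CPM, -0.55, -0.67 to -0.44). The round spermatid value depended on the clusters compared: it was -0.03 with doublet calls kept and -0.26 with round and elongating spermatids pooled (1814 and 1280 UMIs). With doublet calls kept, a cluster of 655 cKO cells and 1 control cell with round spermatid markers as best match was left unnamed. Cluster 12, the round cluster that holds 20 or more cells of each library, was at 63.8 CPM in control and 62.1 CPM in cKO (18 cKO UMIs, -0.04). Its 29 cKO cells had a median of 1901 UMIs and its 980 control cells a median of 20000, so they are not alike in depth. With cells assigned one by one to their best-scoring marker set, the spermatogonium ratio was -0.48, short of 1.5-fold. In elongating spermatids, where Bad was at 6.41 and 7.64 CPM, the log2 ratio was 0.25 (-0.03 to 0.53), and free RNA would account for 109% and 88.0% of the UMIs. In somatic cells its ratio was 0.06, made of -0.62 in Sertoli, -1.08 in macrophage and 0.77 in Leydig cells. Markers of other cell types also differed between the libraries in these classes, and their part in these values was not tested.

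Bcl2l11 encodes BIM, a BH3-only protein that binds all survival members. Its level was 42.6 CPM in control and 42.0 CPM in cKO spermatogonia, 3.05 and 2.59 CPM in mid to late spermatocytes, and 151 and 129.6 CPM in elongating spermatids (5491 and 3292 UMIs). It therefore had an early and a late peak, separated by meiosis, in both libraries. By cluster the late peak began in the later round spermatids (109 CPM in control cluster 21, 93.3 CPM in cKO cluster 19) and stood highest in the early elongating ones (209.9 CPM in control cluster 20, 179.5 CPM in cKO cluster 24). The log2 ratio was -0.29 (-0.39 to -0.19) in round and -0.22 (-0.28 to -0.16) in elongating spermatids, short of 1.5-fold in both. Free RNA would account for 3.58% and 3.83% of the elongating spermatid UMIs.

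The other 4 BH3-only genes had few UMIs in spermatids. Bid, which caspase 8 cleaves into an active form, was highest in spermatogonia (40 and 80 UMIs) and had 58 UMIs in control and 19 in cKO mid to late spermatocytes, a log2 ratio of -1.42 (-2.25 to -0.65). Its 3′ end overlaps Bcl2l13 on the opposite strand. Bik, a BH3-only gene of the endoplasmic reticulum, was at 20.2 and 22.5 CPM in spermatogonia and at 113.5 and 101.1 CPM in Sertoli cells. In round spermatids it had 11 UMIs in control and 39 in cKO (log2 ratio 1.81, 0.82 to 2.93), of which free RNA would account for 43.3% and 21.1%, and with round and elongating spermatids pooled the ratio was 0.35 (117 and 126 UMIs). Mid to late spermatocytes had 26 and 37 Bik UMIs (0.70, -0.06 to 1.48). The p53 target Bbc3 (PUMA) had 1 and 7 UMIs in spermatogonia and 42 and 37 in mid to late spermatocytes (log2 ratio 0.01). Of the latter, 40 and 35 were in cluster 5, at a log2 ratio of 0.52 (-0.17 to 1.21). Pmaip1 (NOXA), also a p53 target, was highest in early spermatocytes, at 7.05 CPM in control (68 UMIs) and 7.36 CPM in cKO (108 UMIs). Its intervals there overlapped those of spermatogonia in both libraries.

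Among the survival members, Mcl1 was higher in the cKO library in each of the 5 germ cell classes. Its product is a short-lived protein that holds BAK1 and BIM in check. In control cells its level was 26.3 CPM in spermatogonia (47 UMIs), 24.7 in early spermatocytes (238 UMIs), 19.8 in mid to late spermatocytes (934 UMIs), 12.1 in round spermatids (408 UMIs) and 15.5 in elongating spermatids (565 UMIs). The cKO levels in the same order were 31.9 (85 UMIs), 35.5 (521 UMIs), 43.8 (1813 UMIs), 27.9 (945 UMIs) and 33.0 CPM (837 UMIs). The log2 ratios were 0.28 (-0.26 to 0.82), 0.52 (0.30 to 0.75), 1.15 (1.03 to 1.26), 1.20 (1.03 to 1.37) and 1.08 (0.93 to 1.24). With clusters weighted alike the elongating ratio was 0.02, short of 1.5-fold; that value rests on cluster 20, at 23.3 CPM in control and 9.53 CPM in cKO (2 cKO UMIs in 25 cells), and cluster 22, at 8.71 and 22.9 CPM (2 and 7 UMIs). Control levels were thus lower at each step from early spermatocytes to round spermatids, while in cKO the highest level was in mid to late spermatocytes. The 3 mid to late spermatocyte clusters had log2 ratios of 1.32, 0.93 and 1.34 (clusters 5, 13 and 18), and the 2 early spermatocyte clusters 0.53 and 0.52 (clusters 11 and 14). After each cell was thinned to 2000 UMIs, 1.93% of 1399 control round spermatids (1.28% to 2.80%) and 5.46% of 1502 cKO round spermatids (4.37% to 6.73%) had an Mcl1 UMI; unthinned shares were 23.8% and 42.6%. Mcl1 is made in most cell types, so no class could serve as a blank for these shares.

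Among the somatic classes with an Mcl1 ratio, only macrophages had an interval wholly on the higher side in cKO. Macrophages had 26 and 94 UMIs (72.6 and 156.6 CPM, log2 ratio 1.11, 0.47 to 1.80), Sertoli cells 16 and 71 UMIs (0.74, -0.06 to 1.62) and Leydig cells 17 and 185 UMIs (-0.04, -0.76 to 0.77). In macrophages 11 macrophage markers summed to 10375 CPM in control and 18101 CPM in cKO, and 7 lymphocyte markers to 502.6 and 155.0 CPM. Mid to late spermatocyte markers were at 2183 and 1605 CPM there, and Leydig markers at 114.5 and 563.2 CPM. The part of these markers in the macrophage Mcl1 value was not tested. In pooled somatic cells the log2 ratio was 0.35, short of 1.5-fold. Mcl1 was also higher in the unnamed clusters of low depth. It was at 12.8 and 28.6 CPM in cluster 0 (69 and 8 UMIs) and 11.5 and 29.9 CPM in cluster 1 (19 and 80 UMIs). Cluster 2 was at 21.4 and 31.5 CPM (8 and 209 UMIs). The unnamed cells had medians of 878.5 and 951 UMIs, beside free RNA estimates of 923 and 971 UMIs a cell. The part of free RNA in their Mcl1 values was not tested. Early response and heat shock genes, which tissue dissociation can induce, were also higher in cKO as a sum. The summed level of 13 such genes (Fos, Jun, Junb, Jund, Egr1, Hspa1a and others) was 21.2 CPM in control and 31.3 CPM in cKO mid to late spermatocytes. It was 22.2 and 35.6 CPM in round spermatids, and 714 and 1056 CPM in somatic cells. Dusp1, the largest part of the control sum in mid to late spermatocytes, was at 12.6 and 12.4 CPM there (-0.02). Fos had 1 and 6 UMIs there and Hspa1a 4 and 6. Of the 13 genes 5 were measured in mid to late spermatocytes and 4 of them were over 1.5-fold higher in cKO (12.8% of all measured genes). The counts were the same in round spermatids (22.7%), and in somatic cells 4 of 12 were higher (16.1%). The part of such a response in the Mcl1 difference was not tested.

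Of the other survival genes, Bcl2l1 was highest in early spermatocytes, at 143.2 CPM in control (1381 UMIs) and 126.9 CPM in cKO (1862 UMIs), and lower in round spermatids at 25.2 and 26.5 CPM. Its log2 ratio was -0.51 (-0.91 to -0.12) in spermatogonia, -0.18 in early and -0.06 in mid to late spermatocytes, 0.07 in round and 0.52 (0.08 to 0.95) in elongating spermatids. In the latter the free RNA estimate came to 176% and 167% of its 91 and 91 UMIs. The estimate thus overshoots there, and how much of these UMIs is free RNA is not known. Bcl2 had 6 and 8 UMIs in spermatogonia and at most 11 in any other germ cell class, so no difference was detectable there at this depth. Bcl2l2 had 24 and 37 UMIs in early spermatocytes (0.02, -0.76 to 0.82).

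**Figure D2:**
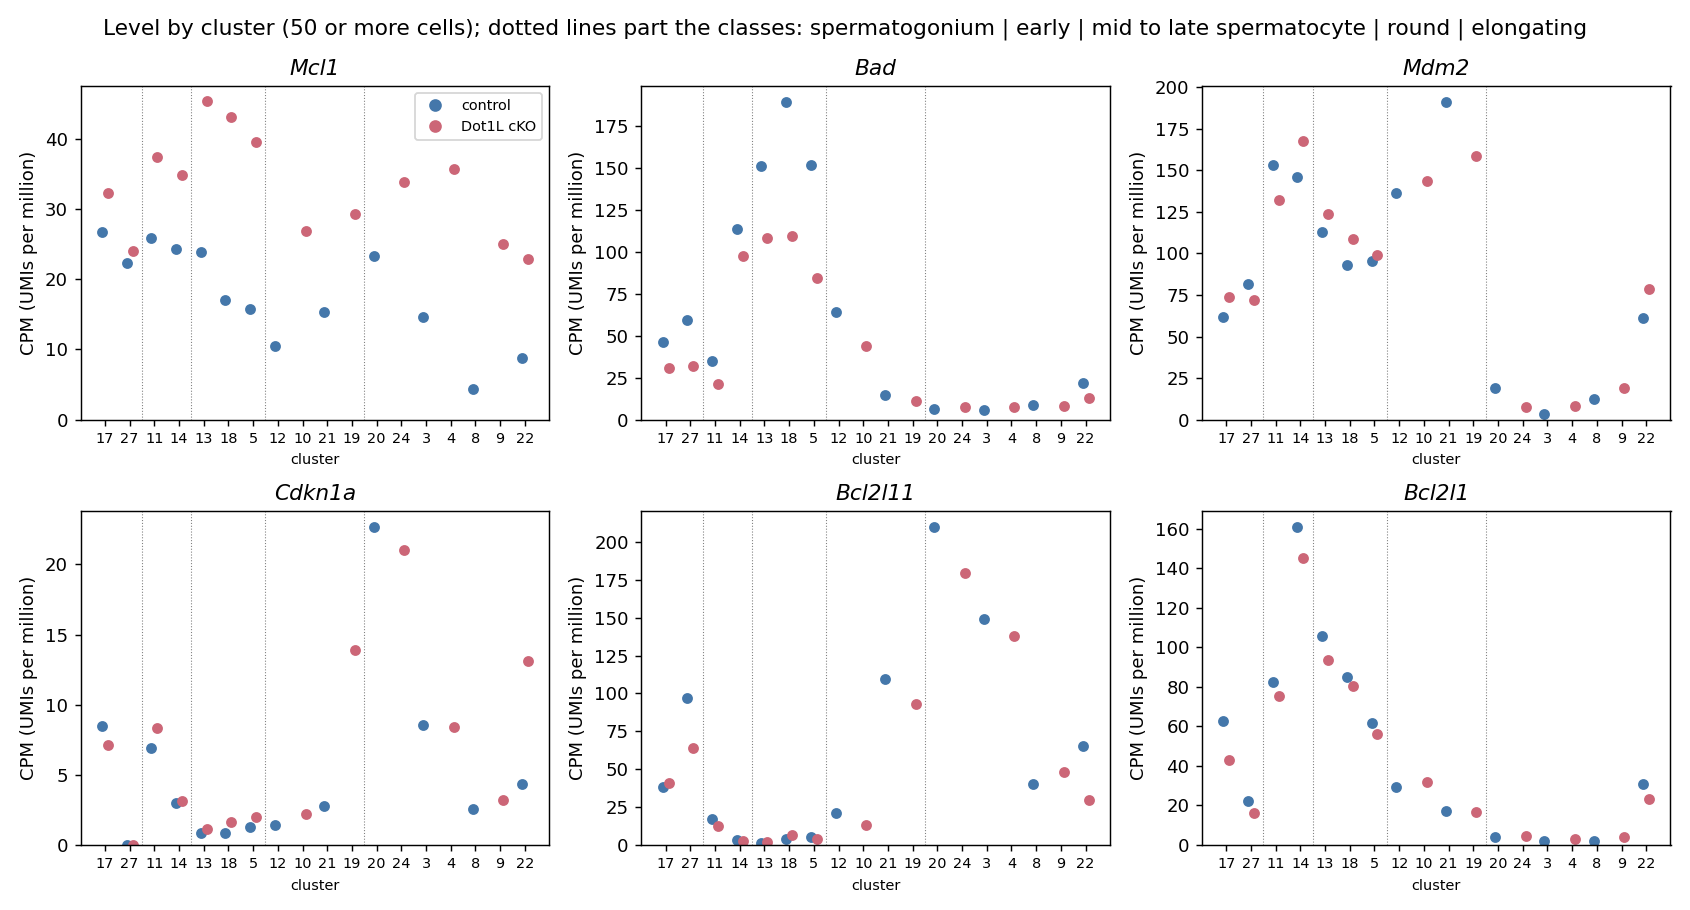
Level in CPM (linear axis, from 0) of 6 members in each germ cell cluster, control in blue and cKO in red; a point needs 50 cells of that library, and clusters run from spermatogonia at the left to elongating spermatids at the right. The cKO points of Mcl1 lie above the control points in each cluster that has both (clusters 27 and 22 with at most 7 UMIs a library), and those of Bad lie below in the spermatogonium, early and mid to late spermatocyte clusters.

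Cdkn1a encodes p21, the cyclin-dependent kinase inhibitor that arrests cells downstream of p53. It had 7.85 and 6.75 CPM in spermatogonia, 0.973 and 1.35 CPM in mid to late spermatocytes, and 11.5 and 10.6 CPM in elongating spermatids (417 and 269 UMIs, log2 ratio -0.12, -0.34 to 0.11). In round spermatids it had 64 UMIs in control (1.90 CPM, 1.47 to 2.43) and 217 in cKO (6.41 CPM, 5.58 to 7.32), a log2 ratio of 1.75 (1.34 to 2.18). Nearly all of that came from 1 cluster: cKO cluster 19 was at 13.9 CPM, while cKO cluster 10 was at 2.16 CPM and the control clusters 12 and 21 at 1.41 and 2.77 CPM. The early elongating clusters that follow were at 22.7 CPM in control (cluster 20) and 21 CPM in cKO (cluster 24). With round and elongating spermatids pooled the Cdkn1a log2 ratio was 0.25 (481 and 486 UMIs), and with doublet calls kept the round spermatid ratio turned to -0.49. In that clustering a cluster of 655 cKO cells and 1 control cell, with round spermatid markers the best match and Fam71b, Actrt3 and Tuba8 as leading genes, was left unnamed, so its cells entered neither spermatid class.

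Mdm2, the p53 ligase, was among the members with the most UMIs and had its highest control level in round spermatids (155.2 CPM, 5215 UMIs) and its highest cKO level in early spermatocytes (158.2 CPM, 2322 UMIs). Its intervals in these classes overlapped in both libraries, so Mdm2 had no distinct highest class. In cKO round spermatids it was at 148.9 CPM (5044 UMIs), and its log2 ratio over the germ cell classes ran from -0.06 in round to 0.30 in elongating spermatids. It was at 8.86 and 10.9 CPM in elongating spermatids, of which free RNA would account for 94.4% and 113% of the UMIs. In the clusters Mdm2 reached 191 CPM in the later control round spermatids and 158.7 CPM in those of the cKO, and 18.9 and 7.64 CPM in the early elongating ones.

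Among germ cells, the other 7 arrest and feedback genes were highest in spermatogonia of both libraries, for 6 of them with an interval clear of the next class and for Sesn2 not. Somatic cells reached higher levels for some of them: Gadd45g was at 169.5 and 70.9 CPM in Leydig and 52.2 and 95.3 CPM in mesenchymal cells, Phlda3 at 23.2 and 31.8 CPM in mesenchymal cells (4 and 17 UMIs), and Sesn2 at 28.4 and 35.3 CPM in Sertoli cells. In control spermatogonia Trp53inp1, which promotes p53 phosphorylation, had 115 UMIs (64.4 CPM), Ccng1, a cyclin that acts with MDM2, 114 (63.9 CPM), Gadd45b 77 (43.2 CPM), Gadd45a 55 (30.8 CPM) and Gadd45g 28 (15.7 CPM). Their cKO levels were 53.6, 64.5, 40.1, 32.6 and 19.1 CPM, all within 1.5-fold. In early spermatocytes of control and cKO they were at 31.6 and 29.2, 2.18 and 2.59, 4.15 and 6.41, 1.97 and 2.86, and 0.415 and 0.545 CPM, in the same order. Gadd45b passed 1.5-fold there (40 and 94 UMIs, log2 ratio 0.63, 0.08 to 1.20), but not with doublet calls kept (0.37) or with clusters weighted alike (0.47). With doublet calls kept, a cluster of 391 control and 494 cKO cells with early spermatocyte markers as best match was left unnamed. Ccng1 passed 1.5-fold in mid to late spermatocytes (49 and 84 UMIs, 0.97, 0.44 to 1.51) and had 32 and 47 UMIs in round spermatids (0.54, -0.14 to 1.24). Phlda3, a p53 target that blocks the kinase AKT, had 13 UMIs in control (7.28 CPM) and 49 in cKO spermatogonia (18.4 CPM), a log2 ratio of 1.33 (0.43 to 2.34), and at most 5 UMIs in any later germ cell class of either library. Sesn2, an antioxidant p53 target, was at 5.60 and 5.63 CPM in spermatogonia and had 143 and 124 UMIs in mid to late spermatocytes (log2 ratio -0.01).

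Casp2 and Apaf1 had their highest germ cell levels in spermatogonia of both libraries, while for Casp8 and Casp9 the interval of the spermatogonium class overlapped that of the next. Apaf1 had 36.4 CPM in the spermatogonia of both libraries (65 and 97 UMIs), 13 and 12.7 CPM in early spermatocytes and 0.169 and 0.628 CPM in mid to late spermatocytes. Casp2, a caspase tied to DNA damage and p53, had 34.7 and 24.8 CPM in spermatogonia (62 and 66 UMIs, log2 ratio -0.49, -1.01 to 0.03) and 9.23 and 9.88 CPM in early spermatocytes. In mid to late spermatocytes Casp2 had 24 UMIs in control and 54 in cKO (0.508 and 1.30 CPM), a log2 ratio of 1.36 (0.64 to 2.12). Casp9, the caspase that APAF1 activates, was at 14 and 12.4 CPM in spermatogonia and at 4.21 and 5.24 CPM in mid to late spermatocytes. In round spermatids it had 27 and 56 UMIs (0.803 and 1.65 CPM, 1.04, 0.35 to 1.76). With doublet calls kept the ratio was 0.46, in a round class without the unnamed cluster of 655 cKO cells. The 3′ end of Casp9 overlaps Cela2a and Ctrc on the opposite strand. Casp8, the caspase of death receptors, had 5 and 5 UMIs in spermatogonia (2.80 and 1.88 CPM) and 66 and 52 UMIs in mid to late spermatocytes (-0.15). In cluster 5 of the latter class it had 51 and 42 UMIs (0.43, -0.19 to 1.05). Of the 3′ sequence of Casp8, 11.4% is shared with Gm20257.

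The death receptor Fas had at most 11 UMIs in any germ cell class of either library and 10 and 18 UMIs in somatic cells, so its germ cell difference was not detectable at this depth. Perp, a p53 target of cell junctions, was highest in early spermatocytes (3.42 CPM, 33 UMIs in control; 4.09 CPM, 60 UMIs in cKO). Its intervals there overlapped those of spermatogonia in both libraries. Aen, an exonuclease induced by p53, was at 60.0 and 57.0 CPM in spermatogonia, 23.8 and 25.6 CPM in early and 7.85 and 7.34 CPM in mid to late spermatocytes. It had 27 UMIs in control and 46 in cKO round spermatids (0.76, 0.04 to 1.5), and 0.57 with the spermatid classes pooled.

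Trp53 itself was at 50.4 CPM in control (90 UMIs) and 44.6 CPM in cKO spermatogonia (119 UMIs). It then stood lower in each later class, at 16.5 and 14.1, 9.09 and 9.59, 2.95 and 3.28, and 0.523 and 1.02 CPM. In the control library the intervals of neighbouring classes did not overlap. Its log2 ratios were -0.18 in spermatogonia, -0.23 in early spermatocytes, 0.08 in mid to late spermatocytes and 0.15 in round spermatids, and each interval included 0. Trp63 had 2 and 3 UMIs in spermatogonia and was highest among the germ cell classes in early spermatocytes (7.47 CPM, 72 UMIs in control; 7.22 CPM, 106 UMIs in cKO), where the earlier cluster 11 held 25 and 20.4 CPM and cluster 14 held 2.41 and 2.58 CPM. Cluster 7, a cluster of low RNA content kept out of the classes, was higher, at 36.6 CPM in control (40 UMIs) and 32.4 CPM in cKO (58 UMIs). In round spermatids it was at 3.96 and 3.42 CPM (133 and 116 UMIs, -0.21, -0.58 to 0.16). The 3′ tags do not tell its isoforms apart.

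**Figure D3:**
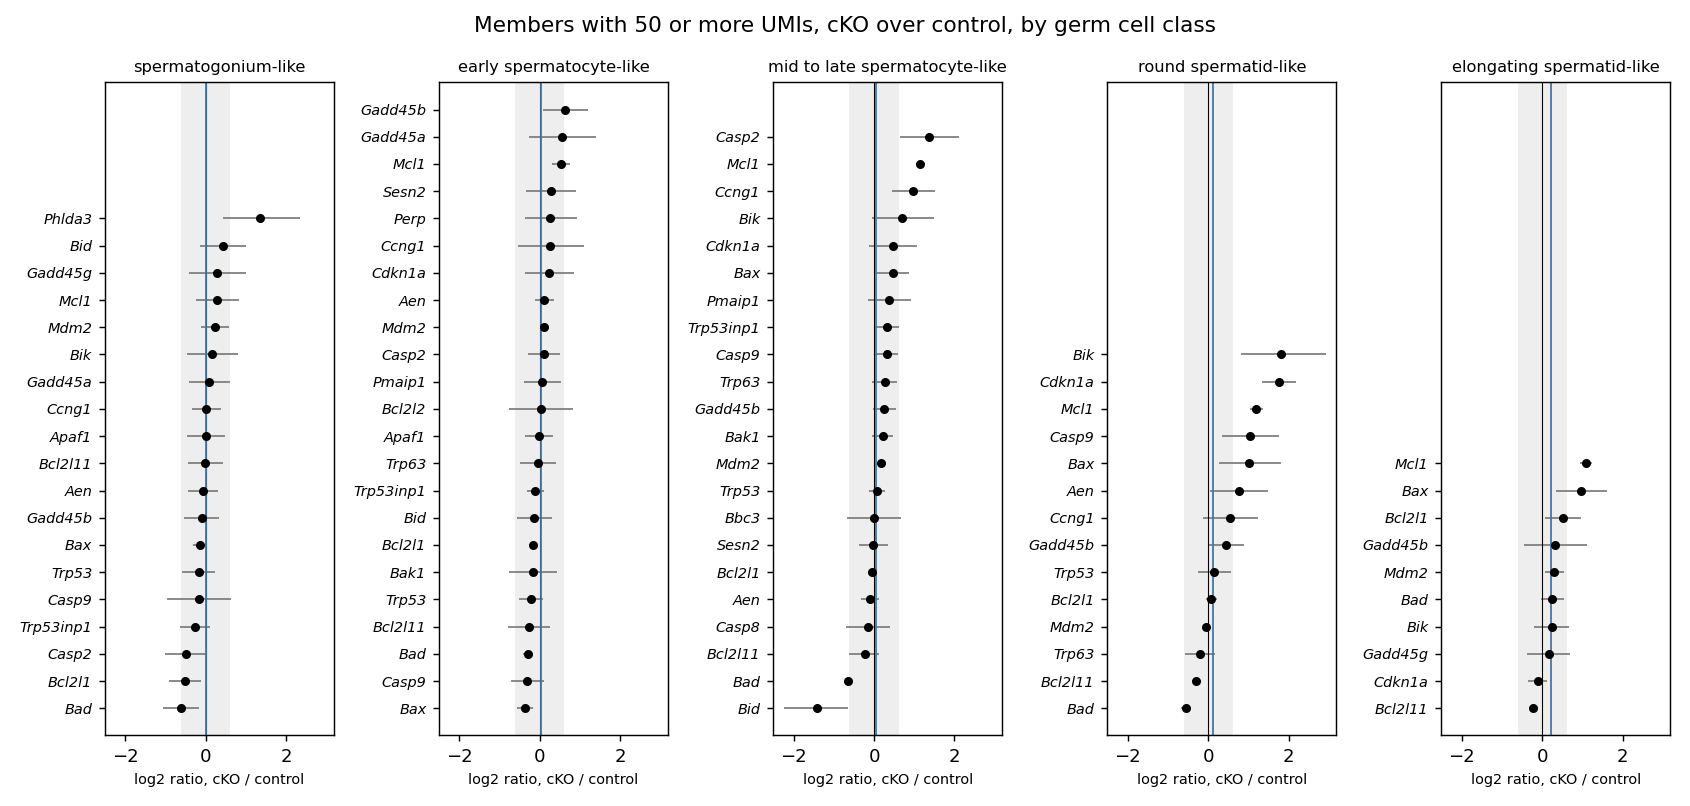
Log2 ratio of CPM, cKO over control, for the members with 50 or more UMIs over both libraries in each of 5 germ cell classes, with 95% intervals from counting; the grey band is within 1.5-fold and the blue line is the median of all measured genes. Mcl1 lies beyond the band in mid to late spermatocytes, round and elongating spermatids, and Bad beyond it on the low side in spermatogonia and mid to late spermatocytes.

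As a group the members were close to the other genes in the mitotic and early meiotic classes. A member counts as measured once its UMIs of both libraries together reach 50, which a member high in 1 library can reach through that library alone. In spermatogonia 19 were measured, with 1 over 1.5-fold higher (Phlda3) and 1 lower (Bad), where 8.96% and 5.34% of 9578 measured genes passed; the median log2 ratio was -0.02 and that of all measured genes 0.01. In early spermatocytes 23 were measured, with 1 higher (Gadd45b) and 0 lower (10.1% and 2.81% of all), and medians of 0.02 and 0.03. In mid to late spermatocytes 22 were measured, with 4 higher (Casp2, Mcl1, Ccng1, Bik) and 2 lower (Bid, Bad), against 12.8% and 5.75% of all, and medians of 0.23 and 0.06. In round spermatids 14 were measured, with 6 higher (Bik, Cdkn1a, Mcl1, Casp9, Bax, Aen) and 0 lower, against 22.7% and 7.02% of all, and medians of 0.49 and 0.12. In elongating spermatids 10 were measured, with 2 higher (Mcl1, Bax) and 0 lower, against 26.4% and 10.9% of all, and medians of 0.28 and 0.21; neither Mcl1 nor Bax passed 1.5-fold there with clusters weighted alike. With round and elongating spermatids pooled, 7 of 20 were higher and 0 lower (25.5% and 5.75% of 17116 genes), with a median of 0.49 against 0.23. These were not the same members: Mcl1, Bax and Casp9 passed again, while Bik (0.35), Cdkn1a (0.25) and Aen (0.57) did not. The others were Trp53inp1 (18 and 35 UMIs), Sesn2 (25 and 39), Bbc3 (22 and 34) and Casp8 (23 and 34). Free RNA would account for 125.5% of the pooled control UMIs of Trp53inp1 and 75.8% of those of Bax. Of the 6 higher in round spermatids, 4 had under 100 UMIs over both libraries, and the others were Mcl1 and Cdkn1a. The quartiles of the log2 ratio of all measured genes were -0.15 and 0.31 in mid to late spermatocytes. They were -0.18 and 0.53 in round and -0.07 and 0.59 in pooled spermatids. The member medians lay between these quartiles, and a difference between members and other genes was not tested.

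**Figure D4:**
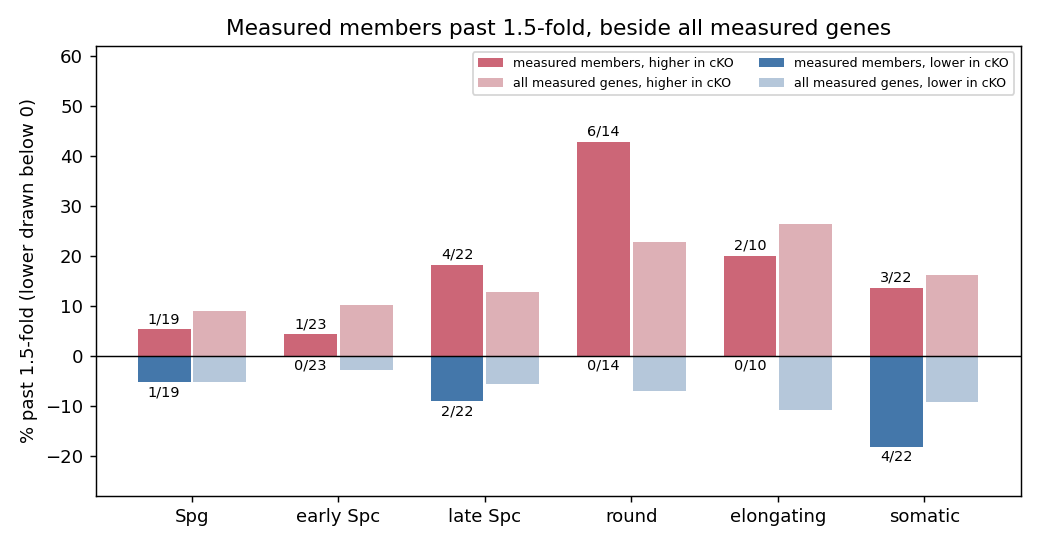
Percent of measured members over 1.5-fold higher (red, above 0) or lower (blue, below 0) in cKO, beside all measured genes of the class (pale bars); the numbers over and under the bars are members called and measured. The member share is above the pale bar in round spermatids (6 of 14) and below it in elongating spermatids (2 of 10).

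Markers of other cell types were higher in some cKO germ cell classes. In round spermatids the summed level of 10 Leydig markers was 6.99 CPM in control and 13.6 CPM in cKO, that of 9 mesenchymal markers 12.7 and 23.6 CPM and that of 12 Sertoli markers 77.0 and 86.3 CPM. Of these lists 1 mesenchymal marker was at 0 in cKO and none in control. In elongating spermatids the Leydig markers were at 4.57 and 12.2 CPM (1 of 10 at 0 in control, 0 in cKO) and 6 erythroid markers at 1.46 and 29.2 CPM (2 at 0 in control, 0 in cKO). In early spermatocytes the erythroid markers were at 1.45 and 40.9 CPM (2 and 1 at 0) and the Leydig markers at 19.3 and 22.2 CPM (3 and 1 at 0). Their part in the elongating spermatid and early spermatocyte counts was not tested. The part of the round spermatid markers in the results for Bik and Bax, which were higher in somatic cells than in spermatids, was not tested beyond the free RNA estimate.

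In somatic cells the members split. Of 22 measured, 3 were over 1.5-fold higher in cKO (Phlda3, Gadd45a, Ccng1) and 4 lower (Bcl2, Bcl2l11, Apaf1, Bik), against 16.1% and 9.16% of 12546 genes, with a median of -0.02 against 0.05. The cKO library held more Leydig UMIs (4360983 of 7652242 somatic UMIs, against 389349 of 1730381 in control), so pooled somatic ratios also compare mixtures of cells. Phlda3 had 5 and 72 UMIs (1.70, 0.41 to 3.37), Gadd45a 19 and 148 (0.82, 0.12 to 1.59) and Bcl2 26 and 44 (-1.39, -2.12 to -0.63). With the somatic clusters given the same weight in both libraries the ratios of Gadd45a, Bcl2, Bik and Apaf1 came to 0.42, -0.24, -0.13 and -0.52, all short of 1.5-fold. Ccng1 had 20 and 136 UMIs (0.62, -0.06 to 1.38) and turned to -0.22 with a mitochondrial limit of 5%.

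Within Sertoli cells, which nurse the germ cells, 13 members were measured, 3 over 1.5-fold higher in cKO (20.5% of all genes) and 2 lower (7.6%). Gadd45a had 5 and 55 UMIs (2.05, 0.74 to 3.73) and Trp53 11 and 87 UMIs (13.6 and 40.4 CPM, 1.57, 0.66 to 2.63). Bcl2l11 was at 77.7 and 46.9 CPM there (-0.73, -1.20 to -0.25), with 27.3% and 41.7% of its UMIs within the free RNA estimate. In the same cells 10 Leydig markers summed to 32.1 CPM in control (6 at 0) and 178.6 CPM in cKO (0 at 0), 11 macrophage markers to 45.7 CPM (7 at 0) and 108.5 CPM (1 at 0), and free RNA was estimated at 35.7% and 46.7% of all UMIs; their part in the Sertoli values was not tested. Leydig cells, which make testosterone, had 12 members measured, 2 higher and 6 lower in cKO (36.3% and 21.2% of all genes). Trp53inp1 had 27 and 110 UMIs (69.4 and 25.2 CPM, -1.46, -2.08 to -0.79) and Gadd45g 66 and 309 UMIs (169.5 and 70.9 CPM, -1.26, -1.65 to -0.85). Trp53 and Gadd45a, higher in cKO in Sertoli cells, were lower in Leydig cells. Trp53 had 13 and 70 UMIs (33.4 and 16.1 CPM, -1.06, -1.92 to -0.08) and Gadd45a 13 and 84 (-0.79, -1.65 to 0.17). Cdkn1a (-0.81) and Ccng1 (-0.61) were also lower. The 2 higher members were Mdm2 (14 and 336 UMIs, 1.10) and Bad (22 and 419 UMIs, 0.77). The markers of the class moved with the 6 lower members: 10 Leydig markers summed to 25080 CPM in control and 9929 CPM in cKO, none at 0 in either. Early spermatocyte markers were at 344.2 and 1056 CPM (2 and 0 of 12 at 0), mid to late spermatocyte markers at 970.9 and 2541 CPM (1 and 0 of 12 at 0) and erythroid markers at 0 and 305.7 CPM (6 and 1 of 6 at 0). The 451 cKO cells held 4360983 UMIs at a median of 1341, so cells above the median carry most of that sum; the part of these markers and cells in the Leydig values was not tested. Median depth was 1070 UMIs in control Leydig cells, and free RNA was estimated at 33.0% of control and 10.0% of cKO Leydig UMIs.

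Genes of the same pathways outside the 30 were described from 5 lists. Among 32 other p53 targets, 20 were measured in round spermatids, of which 8 were over 1.5-fold higher in cKO and 0 lower, with a median of 0.56; 22.7% and 7.02% of all measured genes passed there, with a median of 0.12, and these shares also stand beside the round spermatid counts of the other lists. Btg2, an antiproliferative p53 target, had 17 and 146 UMIs (3.09, 2.36 to 3.91), the death receptor gene Tnfrsf10b 91 and 354 (1.95), Sesn1 108 and 234 (1.10) and Ei24 49 and 82 (0.73). In mid to late spermatocytes 5 of 23 measured were higher and 0 lower (median 0.15; 12.8% and 5.75% of all genes), in spermatogonia 1 of 18 was higher and 1 lower (median 0.01; 8.96% and 5.34%), and in elongating spermatids 4 of 15 were higher and 2 lower (median 0.18; 26.4% and 10.9%). Of 13 other BCL2 family genes, 7 were measured in round spermatids, 3 higher and 0 lower (median 0.47), with Bnip3 at 0.85, Bnip3l at 0.47, Bcl2l13 at 0.43 and Bcl2l12 at -0.05. Of 22 other caspase and apoptosome genes, 9 were measured there, 1 higher and 0 lower (median 0.09). That gene was Diablo, whose product relieves caspases of their inhibitors, with 815 UMIs in control (24.3 CPM) and 2797 in cKO (82.6 CPM), a log2 ratio of 1.77 (1.65 to 1.88). The others named by size were Birc6 at -0.36, Birc5 at 0.15 and Casp6 at 0.13. Of 13 death receptor pathway genes, 6 were measured and 0 passed 1.5-fold (median 0.27), with Fadd at 0.37, Mlkl at 0.33, Ripk1 at 0.21 and Ripk3 at 0.08. Of 23 p53 regulators, 22 were in the gene table and 19 measured, 3 higher and 2 lower (median 0.16). Cdkn2a, which restrains MDM2, was at 1.35 (35 and 90 UMIs), the damage kinase gene Atm at 1.18 (42 and 96), the p53 ligase gene Rchy1 at 0.84 (446 and 803), and Taf9, a p53 cofactor, at -1.85 (283 and 79 UMIs).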

How the data were processed

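Values are UMI counts per gene and cell, deposited by the authors as 1 filtered matrix per library. Per the file headers the counting software was Cell Ranger 7.0.0; the submitters' processing notes name mm10 and Seurat 4.1.0; doublet treatment before deposit is not given in the sources used here. The libraries held 17408 control and 20601 cKO barcodes with 155487418 and 156518838 UMIs (median 2383.5 and 2188 per barcode). Barcodes under 500 UMIs, under 300 genes or over 10% mitochondrial UMIs were dropped. Doublets were scored with scanpy's Scrublet; its automatic threshold called 0 cells, so cells above the 95th percentile of the score in each library were removed (759 and 840), and 35.4% and 27.7% of simulated doublets lay above it. Cells were clustered with scanpy 1.11.5 and leidenalg 0.10.2 (2000 variable genes without members or listed genes, 30 components, 20 neighbours, Leiden resolution 1) and named by markers; the limits for naming somatic clusters were set after the clusters were seen, and 41.1% and 39.1% of cells stayed unnamed. Clusters of 1 name form a class, with UMIs summed per class and library and divided by the class total (CPM); the log2 ratio of CPM has a Clopper-Pearson interval on the split of UMIs.

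The members and lists were chosen with earlier results of these data known, and the list of early response and heat shock genes was added after the results were seen. Every member is accounted for; given in full are the members with the 6 highest and 6 lowest ratios in round spermatids, 4 and 4 each for late meiotic and elongating cells, 3 and 3 in spermatogonia and early spermatocytes, those with an 8-fold span over control germ cell classes, and of each list the 4 genes of largest ratio in round spermatids with 100 or more UMIs. Ratios and intervals were tested on simulated data. Alternatives changed the scaling, the UMI minimum, the class assignment, the mitochondrial limit, the doublet calls, free RNA, cluster weights and cluster sets. Promoters were read from RefSeq tables of GRCm38.p6.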

Additional observations from a re-analysis of the deposited data

How the results depend on the processing

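No paired analysis was possible because each group has 1 library and no test was made. Counts of members over 1.5-fold depended most on the minimum of UMIs. A lower minimum also lets in more genes of few UMIs, members or not. The share of all genes past 1.5-fold under each alternative is not given here. The counts that follow thus show how far the member counts depend on the setting, and no difference between members and other genes. With no minimum, 7 members were higher in mid to late spermatocytes (4 as reported), 13 in the round class (6) and 13 in the elongating class (2), while 2 round and 1 elongating spermatid values were lower (0 in both as reported). With a minimum of 200 UMIs the members higher were 1 in mid to late spermatocytes, 2 in round and 1 in elongating spermatids, and 1 was lower in mid to late spermatocytes (2). With low-RNA clusters put into their classes, 10 were higher in round spermatids. With doublet calls kept, 5 were higher in elongating spermatids, 1 was lower in mid to late spermatocytes and 1 lower in round spermatids. That clustering left clusters with early spermatocyte, mid to late spermatocyte and round spermatid markers as best match unnamed. Its classes thus hold other cells. With the spermatid classes pooled, 7 were higher, set against 2 in elongating spermatids. The median-of-ratios scaling, the class of the highest marker score and the same cluster weights each gave 1 member lower in round spermatids, and the last also 1 in elongating spermatids. The same cluster weights in round spermatids rest on cluster 12, with 29 cKO cells at a median of 1901 UMIs and 980 control cells at a median of 20000. Cdkn1a in round spermatids turned to -0.49 with doublet calls kept, and Ccng1 in somatic cells to -0.22 with the 5% mitochondrial limit. Mcl1 kept a log2 ratio between 1.09 and 1.21 in mid to late spermatocytes and between 1.05 and 1.86 in round spermatids over all alternatives run, and between 0.02 and 1.25 in elongating spermatids, the lowest with the same cluster weights. Bad ran from -0.71 to -0.63 in mid to late spermatocytes and from -0.67 to -0.03 in round spermatids. Bax in elongating spermatids came to 0.11 with the same cluster weights. Depth limits Bcl2, Fas, Perp, Bbc3, Pmaip1 and Phlda3 in most classes, and round spermatid ratios of Bax, Bik and Aen rest on fewer than 50 UMIs in each library.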

Other observations

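Outside the named classes, Mcl1 was higher in cKO in each of the 3 unnamed clusters and the 3 clusters of low RNA content, the latter with at most 40 UMIs a library. Of the unnamed clusters, cluster 0 held 8 Mcl1 UMIs in cKO and cluster 2 held 8 in control. The unnamed cells had medians of 878.5 and 951 UMIs, beside free RNA estimates of 923 and 971 UMIs a cell. The part of free RNA in the values of the unnamed clusters was not tested. Bad was lower in cKO in each unnamed cluster, but not in each cluster of low RNA content. In the 3 unnamed clusters of low depth, Bad was at 76.1 CPM in control and 49.96 CPM in cKO (cluster 0; 411 and 14 UMIs), 66.3 and 38.2 CPM (cluster 1; 110 and 102 UMIs) and 104.3 and 65.9 CPM (cluster 2; 39 and 437 UMIs). Cluster 0 held 4337 control and 297 cKO cells and cluster 2 held 179 and 3946, so these clusters are split by library. In the clusters of low RNA content, Bad was at 10.98 CPM in control and 12.85 CPM in cKO (cluster 7; 12 and 23 UMIs), 40.4 and 26.8 CPM (cluster 15; 36 and 37 UMIs) and 29.3 and 28.5 CPM (cluster 23; 26 and 8 UMIs). Bik in cluster 1, whose leading genes are Sertoli genes such as Cst9 and Cst12, was at 45.8 CPM in control and 44.9 CPM in cKO (76 and 120 UMIs).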
